A study of Mus musculus with 16 samples.

Results

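The genes described here are the Notch receptors Notch1, Notch2, Notch3 and Notch4, the ligands Jag1 and Dll4, and the transcriptional targets Hey1, Hey2, Heyl and Hes1. They were found by their symbols, which matched 10 of the 31055 features of the deposited count matrices, 1 feature for each symbol. The set was selected on earlier results of these counts, which already showed lower Heyl in the VSMCs of 18 weeks, and which values chose the other genes is not recorded, so no test below is independent support for a pattern of the set. The data were single-cell RNA libraries of the mouse thoracic aorta, from the root to the arch, 1 library per mouse on the 129S6/SvEv background. All mice carried Myh11-CreER, a Cre recombinase made in smooth muscle and switched on by tamoxifen, which was given at 6 weeks of age. In the Smad3SmKO mice both Smad3 alleles were floxed, and the Smad3+/+ mice had wild-type Smad3 and received the same Cre and tamoxifen. At 18 weeks after deletion there were 5 Smad3+/+ and 7 Smad3SmKO libraries, and at 10 weeks 2 of each. Some mice were also labelled as carrying a Myh11-GFP tracer.

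Notch receptors are single-pass membrane proteins that are activated by ligands on a neighbouring cell. Ligand binding lets ADAM proteases and then gamma-secretase cut the receptor, and the freed intracellular domain enters the nucleus, where it joins the DNA-binding protein RBPJ and turns on genes of the Hes and Hey families of basic helix-loop-helix repressors. In arteries, Dll4 and Notch1 act in endothelium, while Jag1 on endothelium and on smooth muscle signals to Notch3 and Notch2 in the smooth muscle of the wall. Notch3 is the receptor mutated in the human small-vessel disease CADASIL, and JAG1 and NOTCH2 are the genes of Alagille syndrome.

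Cells were placed in classes by counts of unique molecular identifiers (UMIs), each UMI standing for 1 captured RNA molecule. A vascular smooth muscle cell (VSMC) had at least 5 UMIs of Myh11 and more of Myh11 than of Dcn, a fibroblast had at least 5 UMIs of Dcn and more of Dcn than of Myh11, and an endothelial cell had at least 2 UMIs of Pecam1 and Cdh5 together. After the filters on cell quality 50858 cells were kept, with 12180168 to 48813151 UMIs per library. They held 8950 VSMCs (22 to 1706 per library), 36066 fibroblasts (196 to 5505) and 3303 cells that met the endothelial rule (31 to 469). Of the latter, 62.0% also met the smooth muscle or the fibroblast rule, which left 1254 that met no other rule. UMIs were summed over the cells of a class in each library and are given as CPM, that is, scaled to a common total over all genes of that class and library. With 1 library per mouse, the libraries are the replicates, and a sum over a class cannot tell fewer cells that make a transcript from less of it per cell.

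The class labels were checked against marker lists. In the VSMC sums all 8 smooth muscle markers had UMIs, at 37961 to 75053 CPM together, beside 11.3 to 74.7 CPM of the 8 endothelial markers. The cells of the endothelial rule carried 537 to 2178 CPM of endothelial markers but 5989 to 30499 CPM of the 8 fibroblast markers. Without the cells that met another rule these became 3358 to 5358 and 254 to 2291 CPM, so each endothelial level below is given for the 1254 cells that met the endothelial rule alone, in the 15 libraries with at least 10 of them. Those cells also held 8.24 to 1937 CPM of 4 lymphatic markers.

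In these counts the deleted gene did not mark the genotypes. The paper reported reduced Smad3 RNA (qPCR, relative to Myh11) and protein (immunoblot) in aortas of Smad3SmKO mice. Smad3 stood at 7.44 ± 2.79 CPM (SD, n = 5) in the VSMCs of the Smad3+/+ libraries and at 9.32 ± 4.37 CPM (SD, n = 7) in those labelled Smad3SmKO at 18 weeks, a log2 difference of 0.04 (SE 0.38). A feature of the matrices named Sm3_intact held 0 UMIs in the kept cells of all libraries, both genotypes included. The Smad3 counts do not separate the floxed exons from the rest of the transcript, so the genotypes are those of the labels. GFP went against the tracer label in 4 libraries. There were 0 GFP UMIs in Smad3+/+ replicates 4 and 5 of 18 weeks, which were labelled Myh11-GFP, and 246 and 165 in the 10 week Smad3SmKO libraries, which were labelled as having no tracer. The other Smad3+/+ libraries of 18 weeks, labelled as having no tracer, also held 0. Below, the 2 Smad3+/+ libraries that lacked GFP are replicates 4 and 5, where the label names it. The fits for genotype at 18 weeks are given with and without them, and at 10 weeks no library labelled Smad3SmKO would be left. Of the cell barcodes, 315 occurred in more than 1 library, at most 11 in any pair.

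The promoter sequences of 2 members are shown, of the one whose promoter held a binding motif of the Notch effector RBPJ and of Notch3, a receptor that was higher in smooth muscle than in both other classes. The source was RefSeq (GRCm38.p6), in which a promoter was matched for 7 of the 10 genes but not for Hey1, Heyl and Hes1. Both sequences run 5′ to 3′ on the strand of the gene. Each runs from 250 bases before the start listed with the promoter to 5 bases after. For both genes that start differs from the gene coordinates given below. On the minus strand the Hey2 gene begins at 30842801, a base inside its window. The Notch3 gene begins at 32166852, and the whole Notch3 window lies before that base. Capitals mark the RBPJ core motif TGGGAA or its reverse complement TTCCCA.
Hey2, chr10:30842779-30843033, minus strand: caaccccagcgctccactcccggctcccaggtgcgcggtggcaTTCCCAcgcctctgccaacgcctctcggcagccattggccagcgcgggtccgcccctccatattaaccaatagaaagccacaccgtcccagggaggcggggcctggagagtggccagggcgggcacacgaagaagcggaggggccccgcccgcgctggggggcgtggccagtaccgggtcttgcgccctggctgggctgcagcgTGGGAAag
Notch3, chr17:32166886-32167140, minus strand: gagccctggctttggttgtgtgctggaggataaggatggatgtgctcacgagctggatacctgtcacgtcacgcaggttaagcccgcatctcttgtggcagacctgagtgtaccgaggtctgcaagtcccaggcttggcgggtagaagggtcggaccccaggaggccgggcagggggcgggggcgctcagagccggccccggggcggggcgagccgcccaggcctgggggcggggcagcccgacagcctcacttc
In the Hey2 promoter the motif lies at 207 bases before the start listed with the promoter, on the reverse strand. It also lies at 3 bases before that start on the strand of the gene. The latter match falls within the gene coordinates of Hey2 given below. Over the whole windows, 25.6% of all 32851 listed promoters held TGGGAA on either strand and 1 of the 7 members searched did. The targets Hey1, Heyl and Hes1 were not among the 7, so nothing is known here of their promoters. The Hey-binding E box CACGTG was in 7.15% of all promoters and in 0 of the 7, and the palindromic Smad box GTCTAGAC was in 0.213% and in 0 of the 7. These matches describe the letters of the window only.

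The receptors were not distributed alike over the 3 classes, though Notch1 and Notch4 shared 1 order. Notch3 (ENSMUSG00000038146, chr17:32120820-32166852, GRCm38, minus strand) was higher in VSMCs than in fibroblasts and endothelium. Like the other 9 genes it is annotated as protein coding, and its coordinates span the whole gene. It ranged from 10.9 to 156 CPM in VSMCs (median 24.9, n = 16), from 2.52 to 19.1 CPM in fibroblasts (median 6.65) and from 0 to 61.7 CPM in endothelium (median 8.24, n = 15). In 16 of 16 libraries the VSMC level lay above the fibroblast level, and the fitted log2 difference was 2.28 (SE 0.33, adjusted p = 1.34e-07, edgeR quasi-likelihood test within libraries). Of all 13635 genes tested, 73.3% passed in that comparison, so that a pass by itself says little about a gene. Endothelium lay below VSMCs in 12 of 15 libraries (log2 difference -1.45, adjusted p = 0.00513) and could not be told from fibroblasts (0.76, adjusted p = 0.179).

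Notch1 (ENSMUSG00000026923, chr2:26457903-26516663, minus strand) was highest in endothelium in every library, at 101 ± 28.2 CPM (SD, n = 15) against 16.7 ± 8.29 in fibroblasts and 8.28 ± 4.85 in VSMCs (n = 16 each). The log2 differences were 3.60 from endothelium to VSMCs and 2.43 from endothelium to fibroblasts, and VSMCs lay below fibroblasts in 16 of 16 libraries (log2 difference -1.13, SE 0.14). The order endothelium, fibroblasts, VSMCs therefore held in each step beyond the spread between libraries. Notch4 (ENSMUSG00000015468, chr17:34564268-34588503, plus strand), a receptor known mainly from vascular endothelium, followed the same order at 33.5 ± 17.7, 1.62 ± 0.643 and 0.763 ± 0.800 CPM. In VSMCs it rested on 66 UMIs in 12 of 16 libraries, or 0.749 CPM over all of them (95% exact Poisson interval 0.579 to 0.953, counting error only).

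Notch2 (ENSMUSG00000027878, chr3:98013527-98150361, plus strand) was lower in endothelium than in both other classes. Its level was 24.1 ± 21.9 CPM in endothelium, 56.6 ± 31.2 in VSMCs and 86.4 ± 50.9 in fibroblasts, and endothelium lay below both other classes in 15 of 15 libraries (log2 differences -1.70 and -2.31). VSMCs lay below fibroblasts in 15 of 16 libraries (-0.56, SE 0.07, adjusted p = 7.53e-09). With all cells of the endothelial rule included, the difference from VSMCs was -0.10 (adjusted p = 0.275), and the fibroblast markers in those cells are given above. The 4 libraries of 10 weeks held 99.2 to 115 CPM of Notch2 in VSMCs and the 12 of 18 weeks 28.3 to 60.8. What share of all genes separates these libraries in the same way was not counted, so this may be common. The 10 week libraries were all of 1 batch, so time and batch cannot be told apart.

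The ligands differed in where they were found. Dll4 (ENSMUSG00000027314, chr2:119325784-119335962, plus strand), the ligand of arterial and tip-cell endothelium, was at 17.3 to 167 CPM in endothelium (median 52.2, n = 15). The VSMCs held 4 UMIs of Dll4 among 88116019, in 2 of 16 libraries, which is 0.0454 CPM (95% exact Poisson interval 0.0124 to 0.116), and fibroblasts 346 UMIs, or 0.973 CPM. Pooled over the cells that met 1 rule only, the ratio of endothelium to fibroblasts was 76.3 (95% interval 66.2 to 88.1), and to VSMCs, which then held 1 UMI, 5671 (95% interval 1014 to 224355, counting error only). Jag1 (ENSMUSG00000027276, chr2:137081456-137116644, minus strand) passed in no comparison between classes. VSMCs lay above fibroblasts in 7 of 16 libraries. Endothelium lay above VSMCs in 10 of 15 libraries and above fibroblasts in 10 of 15. The medians of Jag1 were 43.7 CPM in VSMCs (range 19.6 to 151), 39.5 in fibroblasts (23.9 to 134) and 53.6 in endothelium (28.4 to 134). The intervals of the log2 differences were -0.24 to 0.41 for VSMCs over fibroblasts and, with all cells of the endothelial rule, -0.42 to 0.28 for endothelium over VSMCs and -0.31 to 0.34 for endothelium over fibroblasts.

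The target genes fell on both sides. Hey2 (ENSMUSG00000019789, chr10:30832359-30842801, minus strand), whose promoter is shown above, and Heyl (ENSMUSG00000032744, chr4:123233556-123249875, plus strand) were higher in VSMCs, and Hey1 (ENSMUSG00000040289, chr3:8663359-8667256, minus strand) in endothelium. Hey2 stood at 45.7 ± 17.2 CPM in VSMCs against 12.8 ± 8.27 in fibroblasts, above them in 16 of 16 libraries (log2 difference 1.97, SE 0.16), and endothelium lay below VSMCs (log2 difference -2.17). Hey2 in endothelium could not be told from fibroblasts once cells that met 2 rules were left out (-0.14, adjusted p = 0.753), while it was 0.53 higher with them (adjusted p = 0.0204).

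Heyl was nearly absent from endothelium, with 53 UMIs in 12 of 15 libraries and a median of 4.02 CPM. It was at 77.9 CPM in VSMCs (median, range 29.3 to 136) and 64.5 CPM in fibroblasts (22.5 to 88.3). VSMCs were above fibroblasts in 12 of 16 libraries (log2 difference 0.43, SE 0.11, adjusted p = 5.22e-04). The 4 libraries that went the other way were all labelled Smad3SmKO, and VSMCs lay above fibroblasts in every Smad3+/+ library. The fitted difference pools both genotypes, and that of the Smad3+/+ libraries alone was not tested. Endothelium lay below VSMCs (log2 difference -4.01) and below fibroblasts (-3.64), in 15 of 15 libraries each. With the cells that met 2 rules included the differences were -1.13 and -0.70. Hey1 was the reverse, at 46.6 ± 19.3 CPM in endothelium, 11.9 ± 4.72 in fibroblasts and 5.57 ± 2.91 in VSMCs (endothelium over VSMCs 2.93, over fibroblasts 1.81 on the log2 scale, each in 14 of 15 libraries).

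Hes1 (ENSMUSG00000022528, chr16:30064384-30067796, plus strand), a target that many signals besides Notch induce, was at 389 ± 246 CPM in endothelium, 206 ± 86.5 in fibroblasts and 110 ± 80.6 in VSMCs. VSMCs lay below both (-0.97 from fibroblasts, SE 0.20, and 1.50 for endothelium over VSMCs). Endothelium and fibroblasts did not pass a test of their difference (log2 difference 0.48, adjusted p = 0.0568). Among the members as a whole, 9 of 10 passed between VSMCs and fibroblasts, where 73.3% of 13635 genes did. With all cells of the endothelial rule, 8 of 10 passed between endothelium and VSMCs, where 67.7% of all genes did, and 7 of 10 between endothelium and fibroblasts, where 40.7% did. With cells that met 2 rules left out, 9 of 10 passed between endothelium and VSMCs, where 65.1% of 14610 genes did, and 6 of 10 between endothelium and fibroblasts, where 60.0% did.

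**Figure D1:**
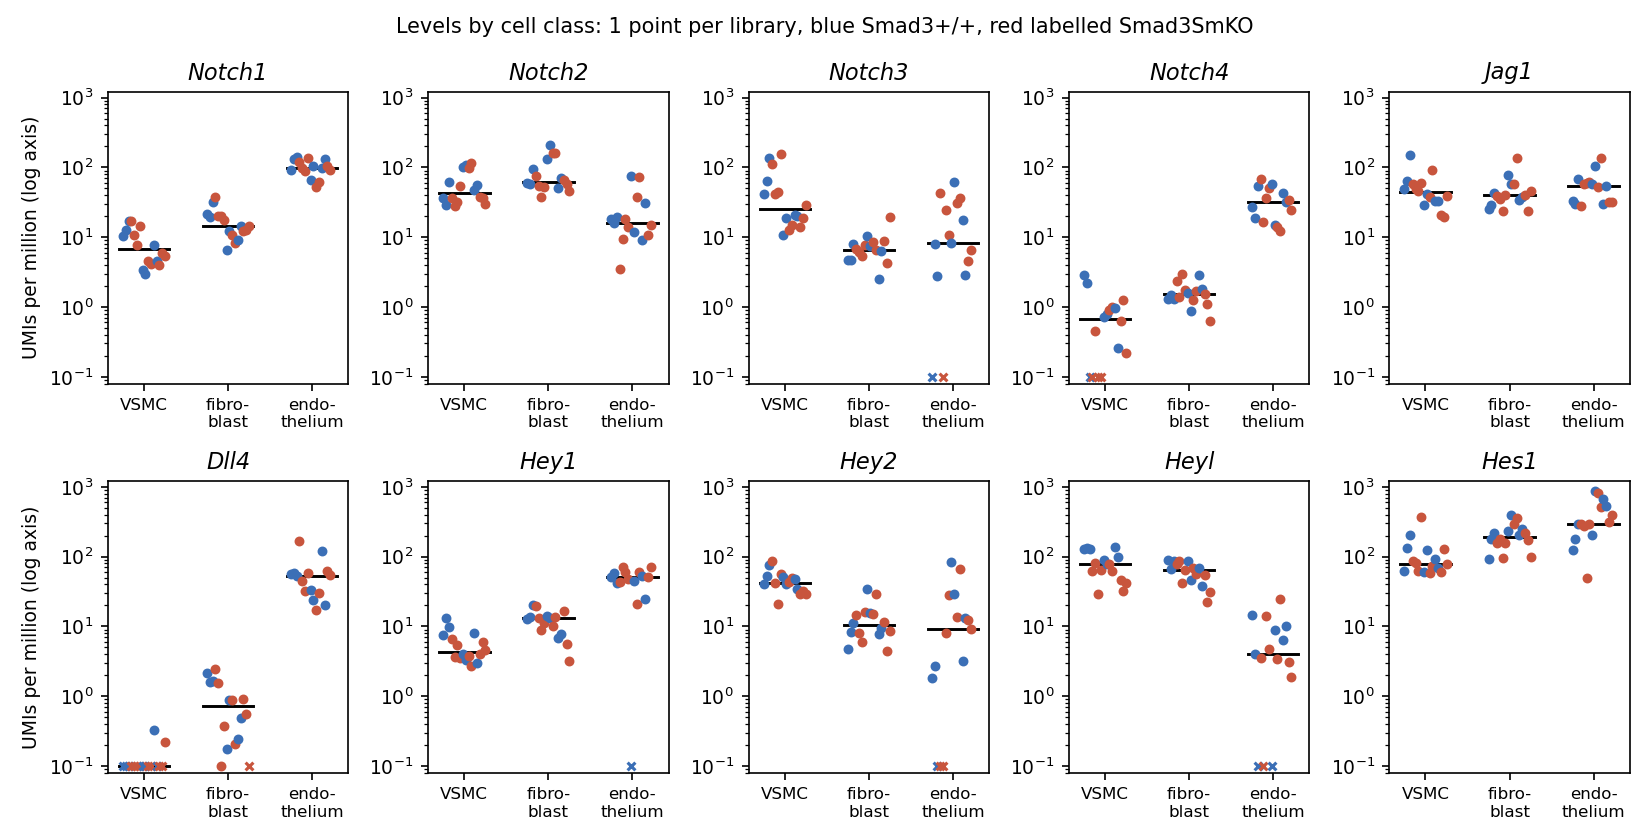
Levels of the 10 genes in VSMCs, fibroblasts and endothelium (cells that met no other rule), 1 point per library, in CPM on a log axis, blue for Smad3+/+ and red for libraries labelled Smad3SmKO, with the median as a line and values below the axis drawn at its lower end, as crosses where they are 0. Notch3 and Hey2 sit highest in VSMCs, Notch1, Notch4, Dll4 and Hey1 in endothelium, and Jag1 overlaps in all 3 classes.

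The genotypes were compared next, to ask whether these genes differed by the genotype label in VSMCs, the class that the Cre targets. Smad3 is a transcription factor that TGF-beta receptors activate. In VSMCs at 18 weeks, Heyl was lower in the libraries labelled Smad3SmKO. The 5 Smad3+/+ libraries held 129, 131.6, 130, 136 and 98.8 CPM of Heyl, replicates 1 to 5. The 7 libraries labelled Smad3SmKO held 62.8, 81.4, 29.3, 64.0, 46.6, 32.3 and 41.9 CPM. Each of the 7 lay below each of the 5, a separation that 0.101% of 11849 genes showed in that direction. The means were 125 ± 14.9 CPM (SD, n = 5) and 51.2 ± 19.0 CPM (SD, n = 7), and the fitted log2 difference was -1.36 (SE 0.23, 95% interval -1.84 to -0.87), with an adjusted p of 0.0498 by the quasi-likelihood test with batch as a term.

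Heyl was 1 of the 5 genes that passed in this comparison (0.0422% of 11852), and 582 genes had an unadjusted p under 0.05. The other 4 were chosen after their values were seen. Bdnf, Prph and GFP were higher, and Pmepa1, an inhibitor of TGF-beta signalling, was lower (log2 difference -0.98, SE 0.13). GFP is the tracer and had 0 UMIs in every Smad3+/+ library of 18 weeks. Its pass therefore cannot be told from which libraries carried a tracer transcript. The lower Heyl had already been noted when these counts were first analysed, so the test is no independent support for it. The adjusted p lay close to the threshold. It was 4.95e-05 with DESeq2 and 0.0143 with no batch term, but 0.0501 with DESeq2's size factors in the same test, and it ran from 0.00285 to 0.440 when each library was left out in turn. Without the 2 Smad3+/+ libraries that lacked GFP it was 0.430, with a log2 difference of -1.18, and 2 genes passed. Those 2 were the only Smad3+/+ libraries of batch 6. With batch as a term, only batches 1 to 3 then inform the difference at 18 weeks. Heyl stayed lower throughout, with log2 differences from -1.61 to -1.16 over the left-out libraries. Over all other alternatives, the digestion times given next included, they ran from -1.75 to -1.14.

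Within each batch that held both genotypes Heyl was lower as well. The log2 ratio of the mean levels was -1.22 in batch 1 (1 Smad3+/+ library and 2 labelled Smad3SmKO), -1.05 in batch 2 and -1.04 in batch 3 (1 of each), and -1.86 in batch 6 (2 and 1). Batch 5 held libraries labelled Smad3SmKO alone, so with batch as a term it does not inform the fitted difference. The 30 min digestions by themselves, which are batches 1 to 3, gave -1.14 (adjusted p = 0.425, edgeR). They thus rest on the same contrasts as the fit without the 2 Smad3+/+ libraries that lacked GFP. The 60 min digestions gave -1.75 (adjusted p = 0.0928, edgeR). The list of 6 heart muscle markers stood at 196 to 389 CPM (median 347) in the same VSMCs of the Smad3+/+ libraries, with Myl3 at 0. In those labelled Smad3SmKO it stood at 99.5 to 533 CPM (median 153). The ranges overlapped, and the difference in this list was not tested. With the VSMCs that carried heart muscle transcripts left out, the difference in Heyl was -1.38 (adjusted p = 0.0621). The 6 pericyte markers stood at 218 to 413 CPM (median 278) and 193 to 563 CPM (median 335), and with the VSMCs that carried pericyte transcripts left out Heyl differed by -1.44 (adjusted p = 0.0263).

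**Figure D2:**
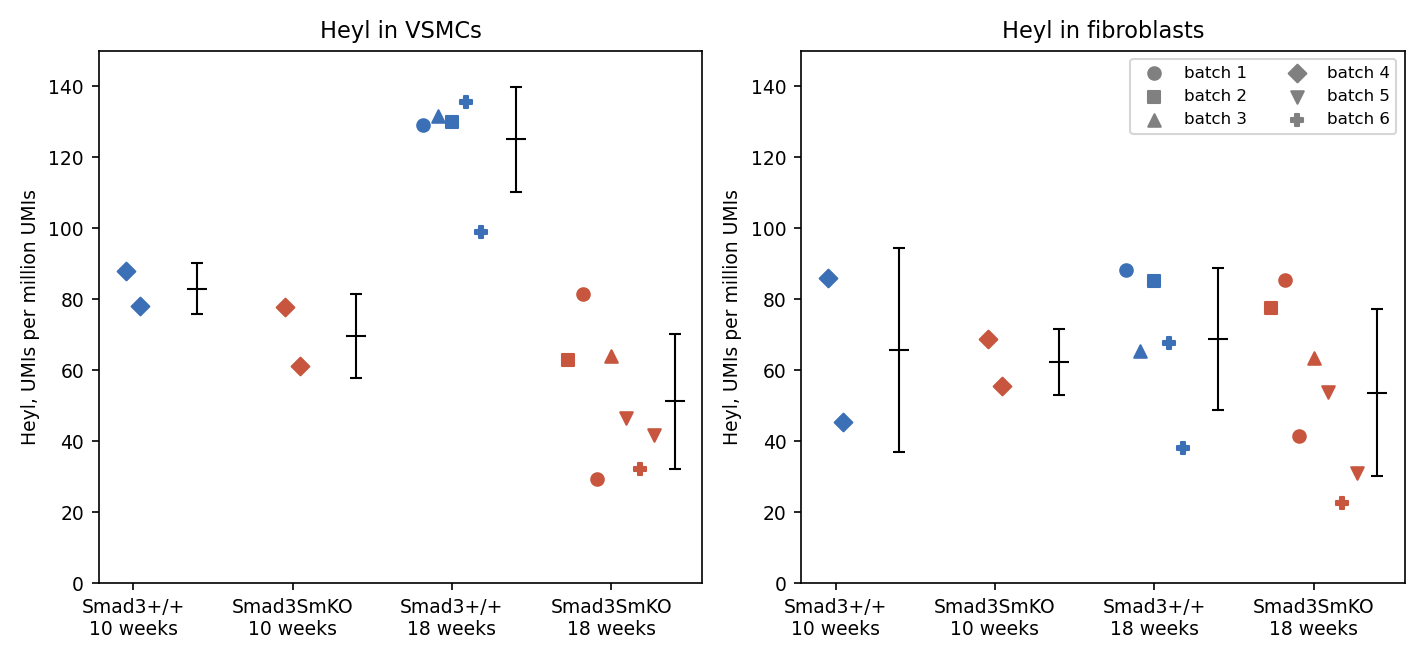
Heyl in VSMCs and in fibroblasts, in CPM, 1 point per library with its shape giving the batch, by genotype and weeks after deletion, beside the group mean and SD. In VSMCs at 18 weeks the 7 libraries labelled Smad3SmKO lie between 29.3 and 81.4 CPM and the 5 Smad3+/+ libraries between 98.8 and 136, while in fibroblasts the groups overlap.

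The other 7 members tested in VSMCs at 18 weeks did not pass. Jag1 came next by p, with a log2 difference of -0.57 (SE 0.31, unadjusted p = 0.0850, edgeR). Its 5 Smad3+/+ libraries held 49.0, 63.6, 151, 32.7 and 33.2 CPM, and those labelled Smad3SmKO ran from 19.6 to 60.5 CPM with a median of 45.6, so the groups overlapped and the highest Smad3+/+ value stood alone. Notch3 spread widely in both groups. It held 41.5, 62.7, 137, 20.8 and 19.8 CPM in the Smad3+/+ libraries and 13.8 to 156 CPM (median 40.9) in the others, and its difference of 0.17 had a 95% interval of -0.42 to 0.77.

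Hey2 differed by -0.15 (interval -0.54 to 0.23), with 33.8 to 76.3 CPM in the Smad3+/+ libraries and 20.6 to 86.6 CPM in those labelled Smad3SmKO. Hey1 differed by -0.41 (-1.24 to 0.43), Notch2 by -0.27 (-0.69 to 0.15), and Notch1 by -0.01 (-0.57 to 0.54). Hes1 differed by 0.39 (-0.29 to 1.07), with 63.2 to 206 CPM in the Smad3+/+ libraries and 60.9 to 373 CPM in the others, where the highest value came from the library of 22 VSMCs. The digestion stress list, immediate-early and heat shock genes, stood at 3364 to 9330 CPM and 2122 to 9597 CPM in the same VSMCs. On simulated counts the same test, over 11611 genes, recovered 50% of log2 differences of 1 and 83.8% of those of 2. Those counts took their spread from the trend over all genes and held 96 and 99 changed genes of these sizes. In the data the genes that passed were far fewer, so the shares need not hold for the members. Without the 2 Smad3+/+ libraries that lacked GFP the differences of Hey1 (-1.06), Hes1 (0.14) and Notch1 (-0.10) moved most in proportion, and no member passed. Notch4 and Dll4 had too few UMIs in VSMCs to be tested.

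At 10 weeks no gene passed in VSMCs (0.0% of 11852, 220 of them under 0.05 before adjustment by edgeR, and 1 gene called by DESeq2). Heyl held 88.0 and 78.0 CPM in the 2 Smad3+/+ libraries and 77.9 and 61.2 CPM in the 2 labelled Smad3SmKO. The pairs did not overlap, as for 14.8% of all genes in that direction, and the log2 difference was -0.23 (95% interval -0.84 to 0.38). Jag1 pointed the other way, at 29.2 and 41.8 CPM against 37.6 and 90.3 CPM, with overlap (0.86, SE 0.38, unadjusted p = 0.0386, adjusted p = 1.00 in edgeR). Over the left-out libraries the Jag1 difference ran from 0.087, without Smad3SmKO replicate 2 of 10 weeks, to 1.37, without Smad3SmKO replicate 1, and it was 0.50 without Smad3+/+ replicate 1 of 10 weeks. The effects at 18 and at 10 weeks were compared in their own test. The effect at 18 weeks minus that at 10 weeks was -1.13 for Heyl (SE 0.37, unadjusted p = 0.00741) and -1.43 for Jag1 (SE 0.49, unadjusted p = 0.0104), both with an adjusted p of 1.00 in edgeR. Over the left-out libraries that of Jag1 ran from -1.95 to -0.67, the latter without Smad3SmKO replicate 2 of 10 weeks. Without the 2 Smad3+/+ libraries that lacked GFP the differences were -0.95 for Heyl and -1.42 for Jag1 (adjusted p = 1.00 each, edgeR), and 0 genes passed. The 1 gene that passed there with all libraries was the tracer GFP, named after its value was seen (0.00844% of the genes tested).

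**Figure D3:**
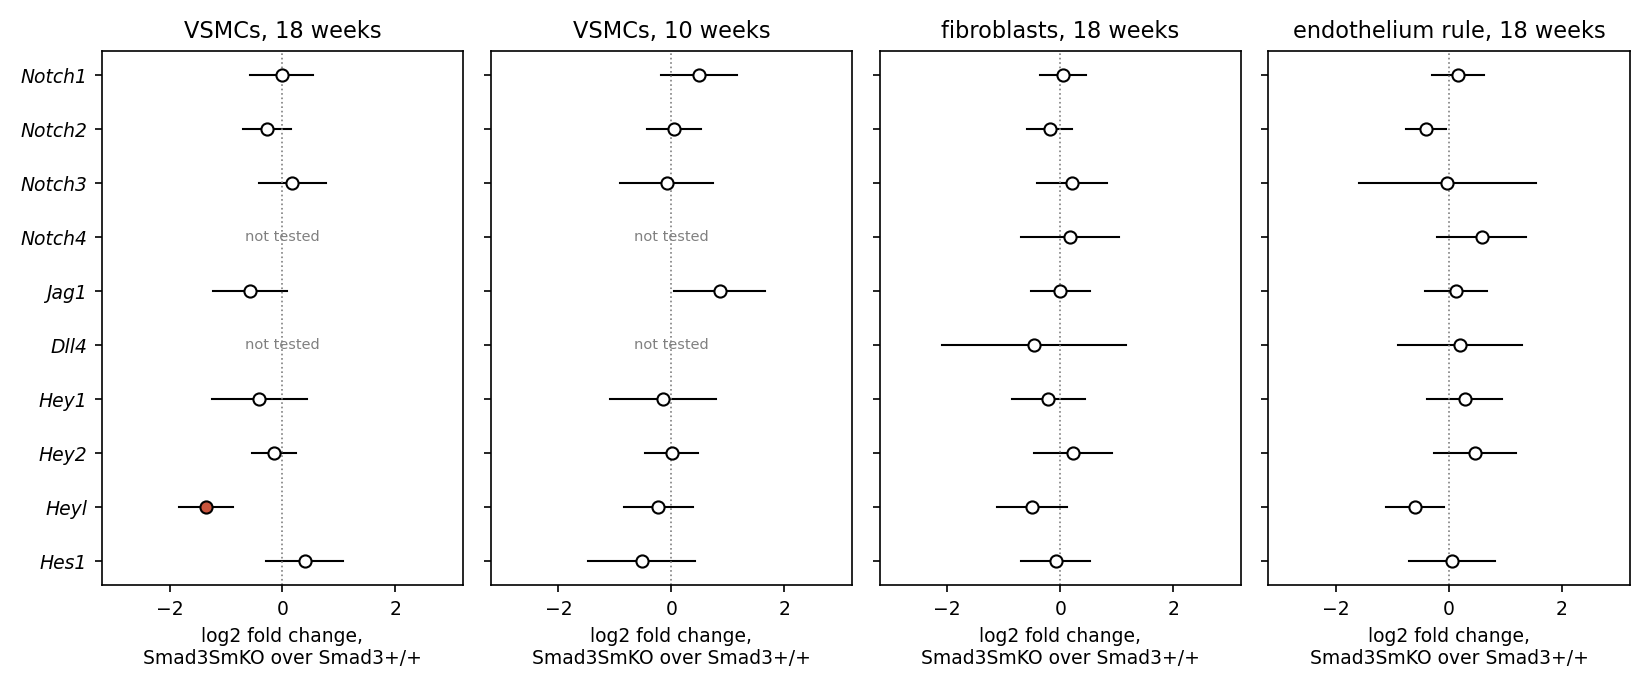
Fitted log2 fold change, libraries labelled Smad3SmKO over Smad3+/+, with 95% intervals, for the members in VSMCs at 18 and 10 weeks and in fibroblasts and the cells of the endothelial rule at 18 weeks; the filled point passed the adjusted threshold. Heyl in VSMCs at 18 weeks lies at -1.36 and its interval ends at -0.87.

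Fibroblasts are not a target of this Cre, and no gene passed there for genotype at either time (0.0% of 14626, where edgeR put 363 genes under 0.05 before adjustment at 18 weeks and DESeq2 passed 3). No gene passed in the cells of the endothelial rule either, 62.0% of which met another rule (0.0% of 11683, with 362 genes under 0.05 before adjustment at 18 weeks by edgeR). They included 236 cells that met the smooth muscle rule, and with the cells that met 2 rules left out 0 of 9114 genes passed, with 322 under 0.05 before adjustment at 18 weeks and 307 at 10 weeks. Heyl in fibroblasts held 88.3, 65.5, 85.1, 67.5 and 38.0 CPM in the Smad3+/+ libraries and 77.6, 85.4, 41.4, 63.4, 53.9, 22.5 and 31.1 CPM in those labelled Smad3SmKO. The groups overlapped over most of their range, with a log2 difference of -0.49 (SE 0.28, unadjusted p = 0.110, edgeR), which was -0.26 (SE 0.28) without the 2 Smad3+/+ libraries that lacked GFP. By batch the ratio in fibroblasts was -0.48, -0.13, -0.05 and -1.23 in batches 1, 2, 3 and 6.

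The genotype effect on Heyl in VSMCs was set against that in fibroblasts of the same libraries in 1 fit. The effect in VSMCs minus that in fibroblasts was -0.86 (95% interval -1.29 to -0.43, unadjusted p = 6.97e-04, adjusted p = 0.917 over 14475 genes in edgeR, of which 0.0% passed and 632 had an unadjusted p under 0.05). For Jag1 it was -0.55 (interval -1.07 to -0.03, unadjusted p = 0.0396). Neither passed after adjustment. They were -0.95 (adjusted p = 0.758, edgeR) and -0.72 (adjusted p = 1.00) without the 2 Smad3+/+ libraries that lacked GFP.

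In the cells of the endothelial rule, Heyl (-0.61, SE 0.24, unadjusted p = 0.0257) and Notch2 (-0.40, SE 0.16, unadjusted p = 0.0289) were the members with the smallest p at 18 weeks by edgeR, and neither passed. They were -0.30 (SE 0.24) and -0.52 (SE 0.19) without the 2 Smad3+/+ libraries that lacked GFP. With the cells that met 2 rules left out Heyl was at -0.78 (SE 0.90) and Notch2 at -0.41 (SE 0.49), on 45 UMIs of Heyl in all at 18 weeks. Dll4 differed by 0.19 (SE 0.51), Notch1 by 0.15 (SE 0.21) and Notch4 by 0.58 (SE 0.37).

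VSMCs were also divided by whether a cell held any UMI of Notch3 or of Enpep, the gene of glutamyl aminopeptidase, transcripts that the study used as markers of a smooth muscle subset. The split gave 1763 cells with and 7187 without such a UMI. Notch3 and Enpep chose the cells and were left out of what follows. Depth was alike on both sides of the split in most libraries, with medians of 5553 to 21775 UMIs per cell with and 5406.5 to 22087 without, and 10199 against 5406.5 in Smad3SmKO replicate 1 of 18 weeks, where the gap was widest.

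Of the 7 other members that could be tested, 6 were higher in the cells with a Notch3 or Enpep UMI, where 7.45% of 10611 genes were higher and 6.96% lower. Hes1 rose most, by 1.62 on the log2 scale (SE 0.10, adjusted p = 9.14e-12), and was higher in 15 of 15 libraries, at 96.4 to 421 CPM with (median 168, n = 16) and 17.1 to 95.4 CPM without (median 51.1, n = 15). Notch1 was higher by 1.50 (SE 0.20) in 12 of 15 libraries, with medians of 12.6 and 3.90 CPM. The ligand Jag1 was higher by 0.80 (SE 0.07) in 14 of 15, with medians of 55.1 and 35.2 CPM.

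The Hey genes showed smaller differences. Hey2 was higher by 0.56 (SE 0.07) in 14 of 15 libraries, Heyl by 0.31 (SE 0.08, adjusted p = 0.00484) in 13 of 15 and Hey1 by 0.65 (SE 0.20, adjusted p = 0.0290) in 11 of 15. Hey1 did not pass once cells that met 2 rules (adjusted p = 0.0972) or cells with pericyte transcripts (0.398) were left out. Notch2 did not pass (0.16, adjusted p = 0.206). With each cell thinned to 2000 UMIs before the split, 363 genes passed in place of 1529, and of the members Hes1 (1.52), Jag1 (0.98) and Hey2 (0.64) still did while Heyl had an adjusted p of 0.0521. Notch1 and Hey1 had too few UMIs to be tested in the thinned fit.

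Marker lists also moved with the split. The 10 genes of the digestion stress list, immediate-early and heat shock genes such as Fos and Hspa1a, summed to 2644 to 12980 CPM with a Notch3 or Enpep UMI (median 6249) and 1434 to 9237 CPM without (median 3813), higher in 15 of 15 libraries. The 6 pericyte markers summed to 150 to 678 CPM (median 298) and 158 to 460 CPM (median 237), higher in 14 of 15, with Vtn at 0 in the 10 week libraries labelled Smad3SmKO on both sides. With the cells that carried pericyte transcripts left out, the differences of Hes1 (1.54), Notch1 (1.50), Jag1 (0.78), Hey2 (0.59) and Heyl (0.26) all passed. The part of digestion stress in them was not tested.

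**Figure D4:**
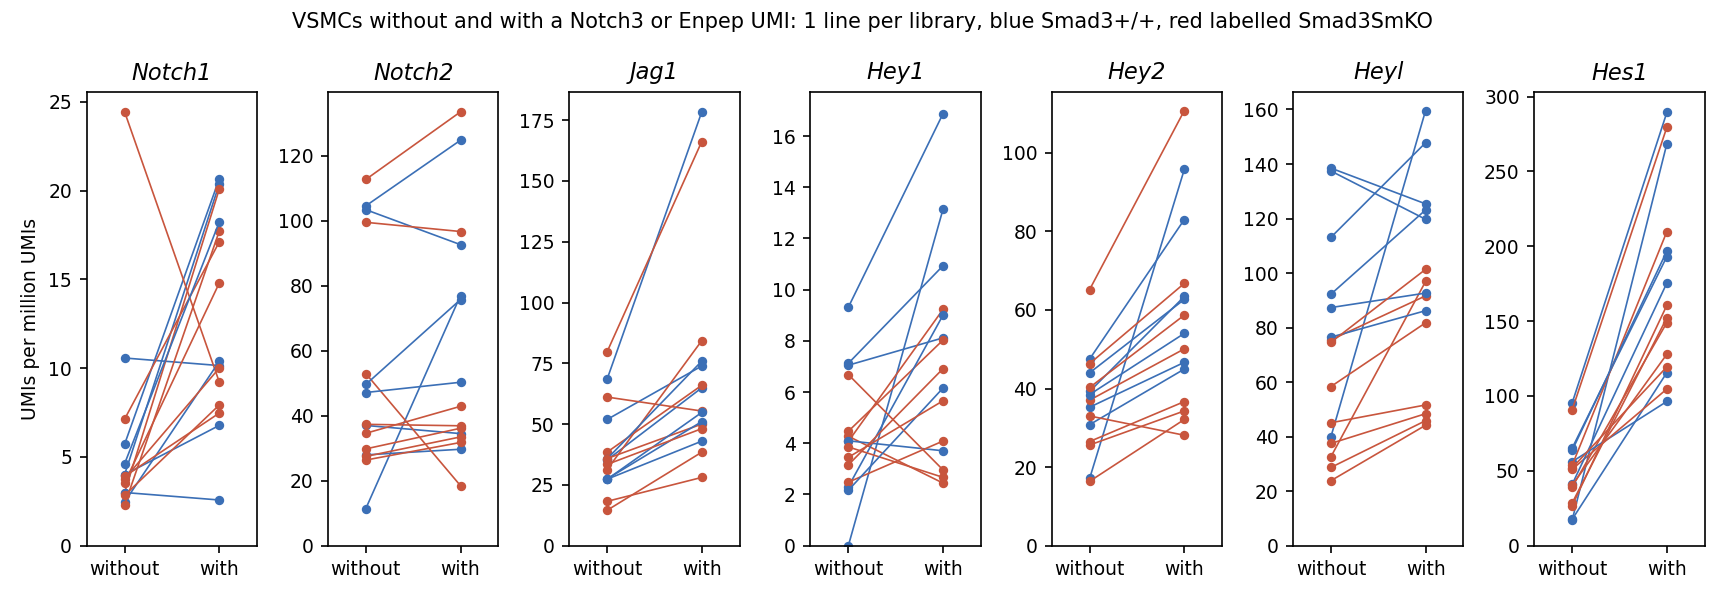
CPM of 7 members in VSMCs without and with a Notch3 or Enpep UMI, on linear axes from 0 that differ between genes, with the sums of 1 library joined by a line (blue Smad3+/+, red labelled Smad3SmKO). Hes1 lies higher in the cells with such a UMI in 15 of 15 libraries, and Notch2 in 10 of 15.

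The share of VSMCs with a Notch3 or Enpep UMI did not differ detectably by genotype at 18 weeks. With each cell thinned to 2000 UMIs it was 17.5, 16.2, 39.6, 8.19 and 5.64% in the Smad3+/+ libraries and 15.3, 16.2, 9.20, 45.5, 6.95, 6.58 and 9.64% in those labelled Smad3SmKO, with wide overlap. The difference of the means was -1.81 points (exact two-sided permutation test, p = 0.774 over 792 splits), and -0.06 points within batches (exact permutation p = 1.00 over 36 splits). Not thinned, the means were 43.9 and 35.4% (exact permutation p = 0.470). Without the 2 Smad3+/+ libraries that lacked GFP the difference of the means was -8.83 points (exact permutation p = 0.358 over 120 splits) and 0.0321 points within batches. The values of 39.6 and 45.5% came from libraries of 48 and 22 VSMCs.

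Heyl was lower in the libraries labelled Smad3SmKO on both sides of the split, without passing on either. In VSMCs with a Notch3 or Enpep UMI it held 120, 148, 160, 125 and 123 CPM in the Smad3+/+ libraries and 44.2 to 96.9 CPM (median 51.6, n = 7) in the others, with no overlap, as for 0.143% of 8421 genes in that direction. The log2 difference was -0.99 (SE 0.19, adjusted p = 0.115 in edgeR, with 0.0% of 8422 genes passing and 375 at an unadjusted p under 0.05). In VSMCs without such a UMI it held 137, 113, 39.9, 138 and 92.2 CPM against 23.8 to 75.5 CPM (median 35.0, n = 6), so that Smad3+/+ replicate 3, with 11 cells, fell among the other group. The log2 difference there was -1.54 (SE 0.30, adjusted p = 0.137, with 0.0397% of 12590 genes passing). Leaving out the 2 Smad3+/+ libraries that lacked GFP gave -0.86 with such a UMI and -1.23 without (adjusted p = 0.719 and 0.897, edgeR).

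The effect on Heyl did not differ detectably between the sides of the split (0.45, 95% interval -0.03 to 0.93, unadjusted p = 0.0651, edgeR, with 0.061% of 11473 genes passing), and was at 0.36 (adjusted p = 0.897) without the 2 Smad3+/+ libraries that lacked GFP. Among the others, Hey1 was lower in the cells with a Notch3 or Enpep UMI (-1.39, SE 0.60, unadjusted p = 0.0343) and Hes1 was higher in those without (0.91, SE 0.29, unadjusted p = 0.00597), both with adjusted p values over 0.05 in edgeR (1.00 and 0.633).

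The rest of the pathway was followed with a list of 72 further genes in 7 roles. Between VSMCs and fibroblasts, 17 of the 67 tested were higher in VSMCs and 32 lower, where 32.5% of all genes were higher and 40.7% lower, and the median log2 difference was -0.21 against -0.08 over all genes. Jag2, another ligand (2.67), Nrarp, a feedback inhibitor that Notch induces (2.22), and Efnb2, an arterial ephrin (1.95), were among those higher in VSMCs, and Lfng, the Fringe glycosyltransferase that modifies Notch receptors (-2.84), was among those lower. Of the 8 cleavage genes tested, which encode the ADAM proteases and gamma-secretase subunits, 5 were lower in VSMCs and 0 higher, Ncstn most (-1.25). Of the 18 genes of the nuclear complex 5 were higher and 7 lower, and Rbpj itself did not pass (0.03).

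Between VSMCs with and without a Notch3 or Enpep UMI, 6 of 57 list genes were higher and 4 lower, where 7.45% of all genes were higher and 6.96% lower, and the median log2 difference was 0.02 against -0.01 over all genes. Nrarp (4.11), Nrip2 (3.69), Neurl1b, an E3 ligase that acts on ligands (2.49), and Ccnd1 (1.38) were the highest, and Mfap5, a matrix microfibril protein (-1.06), was the lowest. For genotype, 0 of 60 list genes passed in the VSMCs of 18 weeks, 3 were under 0.05 before adjustment, 26 of 60 lay below 0 and they had a median of 0.09 against -0.01 over all genes. The 6 with the smallest p were Myc (1.92, SE 0.54, unadjusted p = 0.00271), Cntn1 (-2.96), Grip2 (-0.53), Mfap5 (0.45), Snai2 (0.59) and Fbxw7 (0.36), by edgeR.

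Genes whose level followed Heyl or Notch3 across VSMC sums were ranked by Pearson r of log2 CPM over the 14 libraries with at least 50 VSMCs, after subtracting batch means, among 5295 genes. These points share batch, depth and genotype, so the values are given as a description. Mrgprf (0.95), AI838599 (0.95), Rpl10 (0.95), Plekhg3 (0.93) and 2510002D24Rik (0.92) were most like Heyl, and of the members Hey2 was nearest (0.77, rank 84). Col8a1 (0.90), Npm3 (0.87), Rbm25 (0.87) and Abcf1 (0.84) were among those most like Notch3, and of the members the nearest to it were Hes1 (0.65, rank 101) and Jag1 (0.60, rank 155). Heyl and Notch3 had an r of -0.05 with each other.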

How the data were processed

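Single-cell RNA libraries (10x 3' v3) were made from sorted live cells of the thoracic aorta of 16 mice. The authors deposited UMI counts per gene and cell, aligned to mm10. The submitters' processing notes name Cell Ranger 6 and Seurat 4, and the matrix headers name Cell Ranger 4.0.0. Of 66349 barcodes, 50858 with 600 to 6000 genes, 2000 to 50000 UMIs and under 25% mitochondrial UMIs were kept. No doublet caller was applied, so only those limits act on doublets.

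UMIs were summed per class and library where at least 10 cells were present. The sums, 281192 to 18903689 UMIs per library in VSMCs, were tested over all genes with edgeR 4.0.16 in R 4.3.3 (quasi-likelihood test, TMM, low counts filtered, batch as a term for genotype and library for comparisons within libraries, Benjamini-Hochberg threshold 0.05) after a check on simulated data. Alternatives were DESeq2 1.42.0, its size factors, no filter, no batch term, digestion times apart, other cell rules, thinning to 2000 UMIs and leaving out each library or the 2 Smad3+/+ libraries that lack GFP, which beyond the VSMC and fibroblast comparisons of 18 weeks was added after seeing the data. Intervals are 95% and cover counting error only where they are exact Poisson intervals. Shares were compared by exact permutation in Python 3.11.15 with scipy 1.17.1.

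Groups follow the sample labels. Replicate numbers are in accession order and pair nothing. The named genes are the 10 members, of the pathway list the 6 with the smallest p in VSMCs at 18 weeks where none passed for genotype, the 5 most like Heyl and the 5 most like Notch3, and Smad3. Of the genes most like Notch3, 1 is not reported here. Other pathway genes named were chosen after their values were seen. Members and lists were chosen with earlier results of these data known.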

Additional observations from a re-analysis of the deposited data

Results flagged for a closer look

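In 13 of 62 groups of 5 or 7 libraries the highest or lowest value stood apart from the others by Dixon's criterion, which chance meets in about 1 in 20 groups. In VSMCs, Heyl was at 98.8 CPM in Smad3+/+ replicate 5 of 18 weeks, where the other 4 held 129 to 136. Jag1 reached 151 CPM in Smad3+/+ replicate 3, against 32.7 to 63.6 in the others. Smad3SmKO replicate 4, with 22 VSMCs, stood apart in Notch2 (53.3 CPM from 15 UMIs, others 28.3 to 37.2), in Hes1 (373 CPM, others 60.9 to 130) and in the share of VSMCs with a Notch3 or Enpep UMI (45.5%, others 6.58 to 16.2%). Dll4 in VSMCs was at 0.325 CPM in Smad3+/+ replicate 4 and 0.222 CPM in Smad3SmKO replicate 7, 2 UMIs each, and at 0 in the rest of each group.

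In fibroblasts, Notch1 was at 37.3 CPM in Smad3SmKO replicate 1 (others 12.1 to 20.4). Notch3 was at 19.1 CPM in Smad3SmKO replicate 7 (others 4.31 to 8.77), whose fibroblasts also held 11993 CPM of the smooth muscle list. In the cells of the endothelial rule, Notch3 was at 68.8 CPM in the same library (others 0.399 to 10.6), beside 31469 CPM of the smooth muscle list. Notch2 was at 81.5 CPM in Smad3+/+ replicate 3 (others 37.8 to 50.4). Dll4 was at 52.4 CPM in Smad3+/+ replicate 4 (others 5.22 to 13.9) and at 41.0 CPM in Smad3SmKO replicate 1 (others 7.69 to 21.2). What sets these libraries apart was not tested.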

How the results depend on the processing

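Mice of the 2 genotypes could not be paired, because the labels give no replicate numbers and the numbers used here are in accession order. Classes and the sides of the split were compared within libraries. Heyl in VSMCs at 18 weeks kept its direction under each of 12 alternatives and each left-out library, but not its place past the threshold, and was then the member no longer called. The members called at 18 weeks in VSMCs went from 1 to 0 with DESeq2's size factors, with either digestion time alone, without the 2 Smad3+/+ libraries that lack GFP, with all deposited barcodes, with the stricter VSMC rule and with heart muscle transcripts left out. The genes called there went from 5 to 8 with the DESeq2 test, 1 with no batch term, 2 with 60 min digestions alone or without the libraries that lack GFP, and 3 with the stricter rule.

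With no filter on low counts, genes called for genotype rose to 134 at 18 weeks and 51 at 10 weeks in VSMCs, 70 for the difference of the times, 120 and 38 in endothelium at 18 and 10 weeks, 30 for VSMCs against fibroblasts, 38 and 164 in VSMCs with and without a Notch3 or Enpep UMI, and 56 for their difference. Members called were then 1 at 10 weeks, 2 for the difference of the times, 1 for VSMCs against fibroblasts, and 1 and 2 with and without a Notch3 or Enpep UMI. DESeq2 called 1 gene at 10 weeks in VSMCs, 2 for the difference of the times, and 3 at each time in fibroblasts. With no batch term the difference of the times had 0 genes, VSMCs without a Notch3 or Enpep UMI 0, and those with one 1 gene, which was a member (1). Leaving out cells that meet 2 rules raised the genes called between endothelium and fibroblasts from 5549 to 8768, and thinning lowered those called by the Notch3 or Enpep split from 1529 to 363 and the members from 6 to 3, with Notch1 and Hey1 too low to be tested. Without the 2 Smad3+/+ libraries that lack GFP, an alternative that was extended to these comparisons after seeing the data, the genes called went to 0 for the difference of the times, 1 and 0 in VSMCs with and without a Notch3 or Enpep UMI, and 22 for their difference. The cause of these shifts was not tested.

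Some log2 differences that had not passed changed sign. In VSMCs at 18 weeks Notch1 was at 0.071 with 60 min digestions, 0.13 with pericyte transcripts left out and 0.0018 with all barcodes, Notch3 at -0.19 with no batch term and -0.013 with 60 min digestions, and Hey1 at 0.24 with 60 min digestions. At 10 weeks Notch3 was at 0.15 and Hey2 at -0.091 with the stricter rule, and Notch3 at 0.029 with pericyte transcripts left out. The difference of the times for Notch3 was -0.095 with no batch term and -0.062 with the stricter rule. For endothelium over fibroblasts, Hes1 was at 0.0091 with DESeq2's size factors and 0.48 with cells that meet 2 rules left out, which put Hey2 at -0.14 and Jag1 at -0.0020, and Jag1 was at -0.032 with no filter.

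Over the left-out libraries, the 18 week VSMC comparison had 2 to 6 genes and 0 to 1 members called. Without Smad3SmKO replicate 4 or 6 it had 2 genes, and without replicate 6 Heyl had an adjusted p of 0.440. Genes called ran from 0 to 1 at 10 weeks, for the difference of the times and in VSMCs with a Notch3 or Enpep UMI. They ran from 0 to 15 in those without (members 0 to 1), from 3 to 22 for their difference and from 0 to 13 for VSMCs against fibroblasts. The log2 differences ran from -0.14 to 0.10 for Notch1 and from -0.15 to 0.34 for Notch3 at 18 weeks, and from -0.33 to 0.74 for Notch3 in the difference of the times. At 10 weeks they ran from -0.11 to 0.23 for Notch2, -0.58 to 0.48 for Notch3, -0.10 to 0.11 for Hey2, -1.04 to 0.25 for Hes1 and -0.43 to 0.025 for Hey1 in VSMCs, and from -0.26 to 1.01 for Jag1 in fibroblasts. For Jag1 the ranges were -0.021 to 0.22 in VSMCs over fibroblasts, -0.16 to 0.040 in endothelium over VSMCs and -0.018 to 0.079 in endothelium over fibroblasts, where Hes1 ran from -0.089 to 0.050. The thinned share with a Notch3 or Enpep UMI differed by -6.79 to 3.72 points, above 0 without Smad3+/+ replicate 3. At 10 weeks a left-out library leaves 1 in its group, taken to vary like the rest.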
